A study of Mus musculus with 2 samples.

Results

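Shox2 encodes a homeodomain transcription factor that is needed in the sinus venosus, the inflow part of the embryonic heart, for the sinoatrial node, the natural pacemaker, to form. It shares its regulatory neighbourhood with a single other protein-coding gene, Rsrc1, which codes for an arginine/serine-rich protein with a role in pre-mRNA splicing and is transcribed in the opposite direction. On the far side of Shox2 lies a long gene desert, and the part of it named VS-250 is known to be required for Shox2 in the sinus venosus. Described here is the stretch of chromosome 3 that VS-250 leaves over, from its Shox2-side edge to the end of Rsrc1 (mm10 chr3:66685548-67358396, 672.8 kb). It was cut into the proximal gene desert (286.2 kb), Shox2 with 1 kb before its outermost start (11.0 kb) and the remainder of Rsrc1 (375.6 kb). Its members are the ATAC-seq peaks that touch it, 19 of 118027 in replicate 1 and 18 of 114783 in replicate 2. Where peaks of the replicates overlapped by at least 1 bp, the stretch they had in common was taken as a shared region, which gave 15 shared regions here of 98924 in the genome.

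ATAC-seq uses the Tn5 transposase, which inserts sequencing adapters where DNA is not wrapped on nucleosomes, so a pile of reads marks open chromatin at promoters, enhancers and other bound sites. The libraries came from wildtype (WT) FVB embryos with no transgene, deletion or treatment, at E11.5 (embryonic day) and 49 to 51 somites. Each of the 2 replicates was made from a pair of whole hearts. There was a single group, so no condition is compared and no test between groups was possible. The values are the authors' fold enrichments, the read pileup at a peak's summit over a genome-wide background, and they are given for each replicate. A whole heart holds muscle, endocardium, epicardium and blood, and in such a mixture fewer cells with open chromatin and less open chromatin per cell cannot be told apart.

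The total read number is not in the files, but fold enrichment rose in equal steps that gave back whole reads at the summit for all peaks within 0.05 of a read. A background of 2.68 reads in replicate 1 and 2.98 in replicate 2 lay under these values, and the lowest peak had 9 reads in either list. Promoters of the markers of the heart's cell types were open, with a shared region within 1 kb of a start for 8 of 8 heart muscle genes, 4 of 4 endothelial, 3 of 3 epicardial and 3 of 3 blood genes, and for 3 of 8 genes of other tissues (Pax6, Cdx2 and Myod1). Of all 21643 protein-coding genes, 67.1% had such a region. Over all shared regions the rank correlation of the fold enrichments of the replicates was 0.77 (98924 regions, which share libraries and are not independent).

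The sequences behind the regions away from gene starts are shown first, because most of them have no gene or name to identify them. Each is 200 bases of the GRCm38 (mm10) plus strand centred on the summit in replicate 1. They are the regions that held any of 8 motifs of heart transcription factors and CTCF, together with the strongest desert region that held none. Capitals mark the letters of the motif of the GATA factors, which is AGATAA. They also mark that of the homeodomain factor NKX2-5, spelled TNAAGTG, where N is any base. The last motif marked is that of the MEIS factors, TGACAG. Both strands were searched, so a minus-strand match appears as the reverse complement.
Rsrc1 intron, chr3:67134732-67134931: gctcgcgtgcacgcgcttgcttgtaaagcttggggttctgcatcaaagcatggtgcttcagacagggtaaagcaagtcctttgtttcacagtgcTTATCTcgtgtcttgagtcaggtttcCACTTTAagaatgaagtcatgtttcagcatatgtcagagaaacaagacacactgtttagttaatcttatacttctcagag
Gene desert, chr3:66699772-66699971: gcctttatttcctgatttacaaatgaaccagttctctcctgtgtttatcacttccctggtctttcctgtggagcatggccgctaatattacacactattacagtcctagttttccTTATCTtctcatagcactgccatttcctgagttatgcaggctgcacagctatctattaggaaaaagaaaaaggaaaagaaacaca
Gene desert, chr3:66758266-66758465: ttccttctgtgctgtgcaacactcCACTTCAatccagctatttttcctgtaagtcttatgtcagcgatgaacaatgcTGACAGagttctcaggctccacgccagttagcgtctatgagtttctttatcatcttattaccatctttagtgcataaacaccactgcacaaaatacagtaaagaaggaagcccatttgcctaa
Gene desert, chr3:66970845-66971044: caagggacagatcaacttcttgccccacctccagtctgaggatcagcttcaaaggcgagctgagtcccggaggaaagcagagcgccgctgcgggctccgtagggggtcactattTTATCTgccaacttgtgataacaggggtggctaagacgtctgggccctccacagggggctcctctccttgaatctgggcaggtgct
Gene desert, no motif, chr3:66738322-66738521: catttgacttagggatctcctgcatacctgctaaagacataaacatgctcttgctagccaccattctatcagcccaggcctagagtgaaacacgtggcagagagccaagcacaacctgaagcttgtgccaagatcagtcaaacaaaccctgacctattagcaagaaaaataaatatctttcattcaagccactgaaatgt

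Accessibility was highest at the starts of the 2 genes and no peak was called over nearly all of the sequence on either side. The 15 shared regions covered 8738 bp, 1.3% of the span, against 2.19% of the autosomes and X chromosome. Their median fold enrichment was 5.70 in replicate 1 and 4.78 in replicate 2, beside 6.52 and 5.78 over all shared regions on the autosomes and X. A mean fold enrichment of 10 or more was reached by 3 of the 15, and by 26.7% of all shared regions. In 6 of the 15, and in 45.8% of all shared regions, q was at most 1e-10 in both replicates. In each list, 7 of the 15 regions (46.7%) stood above the median of all peaks, and 6 did so in both lists. Of the peaks in the span, 15 of 19 in replicate 1 and 14 of 18 in replicate 2 overlapped a peak of the other library, 78.9% and 77.8% against 81.0% and 82.8% over the whole lists. With so few peaks, these shares stood near those of the genome.

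**Figure D1:**
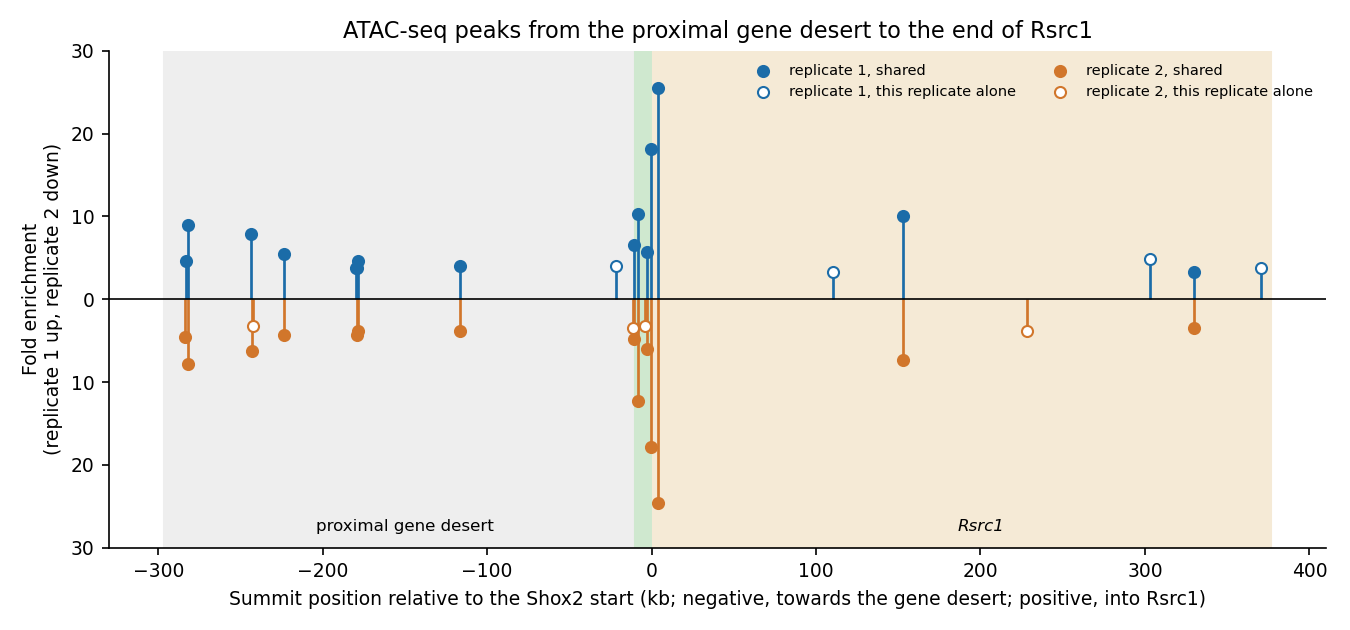
Fold enrichment (vertical axis, replicate 1 upwards and replicate 2 downwards) of every peak in the span against the position of its summit relative to the Shox2-201 start (horizontal axis, kb). Filled points are peaks with a counterpart in the other replicate and open points are peaks of 1 replicate; the tallest lines, 25.5 and 24.6, stand at the main Rsrc1 start and the next, 18.2 and 17.8, at the Shox2 start.

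The strongest region of the span was the main Rsrc1 promoter, from which most annotated Rsrc1 transcripts begin. The region (chr3:66985441-66986404, 964 bp) was enriched 25.5-fold and 24.6-fold in replicates 1 and 2, from 93 and 97 reads at the summit. Counting error alone puts these pileups between 75.1 and 114 reads and between 78.7 and 118 reads (exact 95% Poisson intervals). They exceeded 94.2% and 93.5% of the peaks of their lists, and the summits lay 15 bp apart. The region covered the first exon of Rsrc1-203 and 7 annotated protein-coding starts between 66985670 and 66985978. In replicate 2 the summit fell on a noncoding first exon and in replicate 1 just beyond it, in an intron.

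The Shox2 start held the next strongest region and by far the longest one. The region (chr3:66980426-66982988, 2563 bp) was enriched 18.2-fold and 17.8-fold, from 66 and 70 reads, and was higher than 89.9% of the peaks in either list. It was longer than 99.0% of all shared regions. The summits, 40 bp apart, lay in coding sequence of Shox2 exon 1 at 66981361 and 66981321, and the region also reached the transcript starts of Shox2-203 and Shox2-204. It covered 346 bp of Shox2 coding sequence. The start of 1 annotated Rsrc1 isoform (Rsrc1-206, at 66981390) falls inside Shox2 exon 1, on the opposite strand, 29 and 69 bp from the summits, so reads there could not be assigned to either gene. The start of Shox2-201 and that of Rsrc1-203 are 3901 bp apart and the 2 shared regions were separated by 2.5 kb, with no further peak between them in either replicate.

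The bases just before each start are shown because both lie in open chromatin. They are the 250 bases upstream of the RefSeq start on GRCm38.p6, in the direction of the gene. Capitals mark any of the 8 motifs and the core promoter letters TATAAA of the TATA box, CCAAT of the CCAAT box and GGGCGG of the GC box, and these last 3 were added after the sequences had been seen.
Shox2, chr3:66981772-66982021, minus strand: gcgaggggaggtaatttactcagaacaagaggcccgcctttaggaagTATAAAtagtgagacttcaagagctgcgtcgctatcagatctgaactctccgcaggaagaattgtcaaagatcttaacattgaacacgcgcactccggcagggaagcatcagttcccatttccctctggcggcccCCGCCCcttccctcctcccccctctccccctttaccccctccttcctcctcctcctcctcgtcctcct
Rsrc1, chr3:66985412-66985661, plus strand: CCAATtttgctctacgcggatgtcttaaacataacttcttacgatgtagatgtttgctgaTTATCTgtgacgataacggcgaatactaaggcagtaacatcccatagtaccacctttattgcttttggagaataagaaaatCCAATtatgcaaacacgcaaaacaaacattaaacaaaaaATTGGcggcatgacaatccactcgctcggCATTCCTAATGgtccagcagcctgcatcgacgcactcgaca
The Shox2 bases held 1 TATAAA, present in 12.3% of 32536 promoters of the same length, and 1 GGGCGG, on the strand opposite to the printed one, present in 33.0%. The TATAAA lies towards the end of the printed bases that is far from the start, so it does not show a TATA box at this start. The Rsrc1 bases held 3 CCAAT. At least 1 CCAAT was present in 33.8% of promoters, and the share with 3 was not counted. The Rsrc1 bases also held 1 match each to AGATAA (9.97%), GGAATG of the TEAD factors (12.6%) and CTAATG of ISL1 (6.33%), the last 2 of which overlap in the printed run CATTCCTAATG. These are letter matches in a window and do not show that a factor was bound.

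Both promoters were unremarkable in height among open promoters, while that of Shox2 was long. Among the 14525 protein-coding genes with a shared region within 1 kb of a start, the median of the mean fold enrichment was 24.5. The Rsrc1 region, with a mean of 25.1, was higher than 51.8% of them and longer than 26.0%. The Shox2 region, with a mean of 18.0, was higher than 33.0% and longer than 93.2%. A broad open region over the start and first exon is a frequent form at developmental regulator genes with CpG-rich promoters. Both regions were rich in bases C and G (57.7% in each) and in CpG, with an observed to expected CpG ratio of 0.67 at Shox2 and 0.80 at Rsrc1 against a median of 0.24 over all shared regions.

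**Figure D2:**
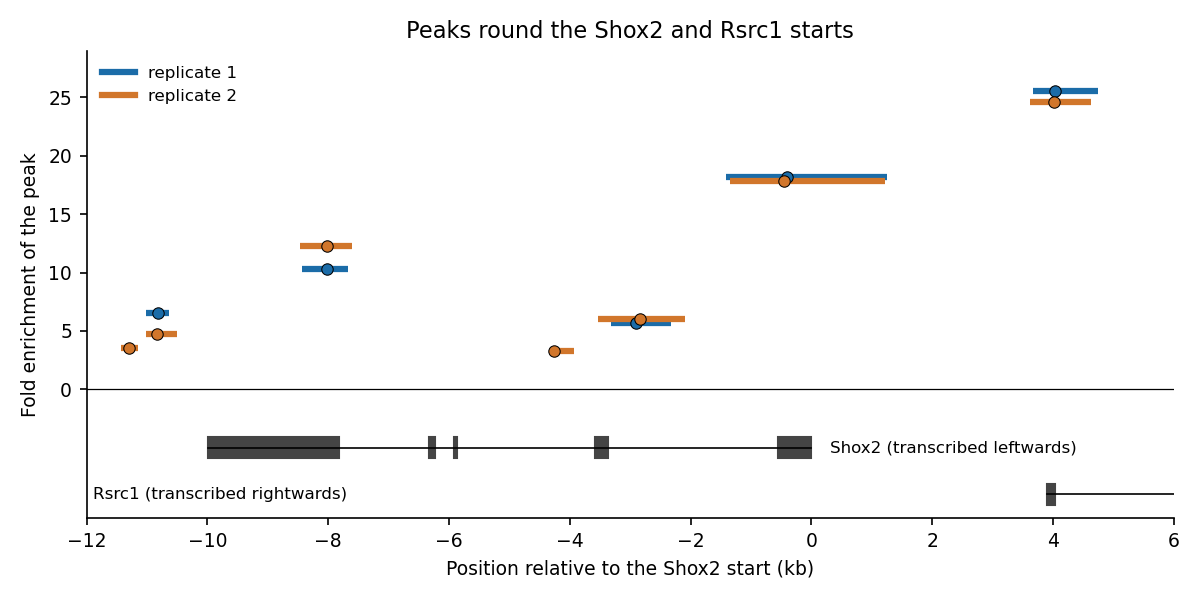
Peaks of replicate 1 (blue) and replicate 2 (orange) around the Shox2 and Rsrc1 starts, each drawn as a bar from its first to its last base at its fold enrichment (vertical axis), with a point at the summit; the horizontal axis is the distance from the Shox2-201 start in kb and the boxes are exons of Shox2-201 and Rsrc1-203. The Shox2 start region reaches over the whole first exon, and another peak of both replicates, at 10.3 and 12.3, has its summits on the last exon.

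The gene lists set the Shox2 start beside genes of the sinus venosus and pacemaker, and the Rsrc1 start beside genes of splicing proteins. The list of sinus venosus and pacemaker genes holds transcription factors that pattern the inflow tract, such as Isl1, Tbx3 and Tbx18, the pacemaker channel gene Hcn4 and the signal Bmp4. It also holds Nkx2-5, which the study describes as antagonised in pacemaker progenitors where Shox2 is active. All 9 reported here had a shared region at a start, with mean fold enrichments from 5.10 to 29.1 and a median of 11.7. Shox2 stood above 6 of the 9 and below Isl1 (29.3 in replicate 1 and 28.9 in replicate 2), Tbx18 (24.2 and 22.4) and Tbx3 (25.5 and 19.6). The difference from Tbx3 was larger than that between the replicates of Tbx3 in replicate 1 (25.5 against 18.2) and smaller in replicate 2 (19.6 against 17.8). All 13 genes of the SR family list, which code for splicing proteins of the kind that Rsrc1 resembles, were open at a start, from 22.5 to 42.2 with a median of 27.5. Rsrc1 stood within that range, above 4 of the 13 and below 9. Its neighbours in this order were Srsf3 (24.2 and 25.6) and Srsf4 (24.7 and 26.1), each lower than Rsrc1 in replicate 1 and higher in replicate 2.

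**Figure D3:**
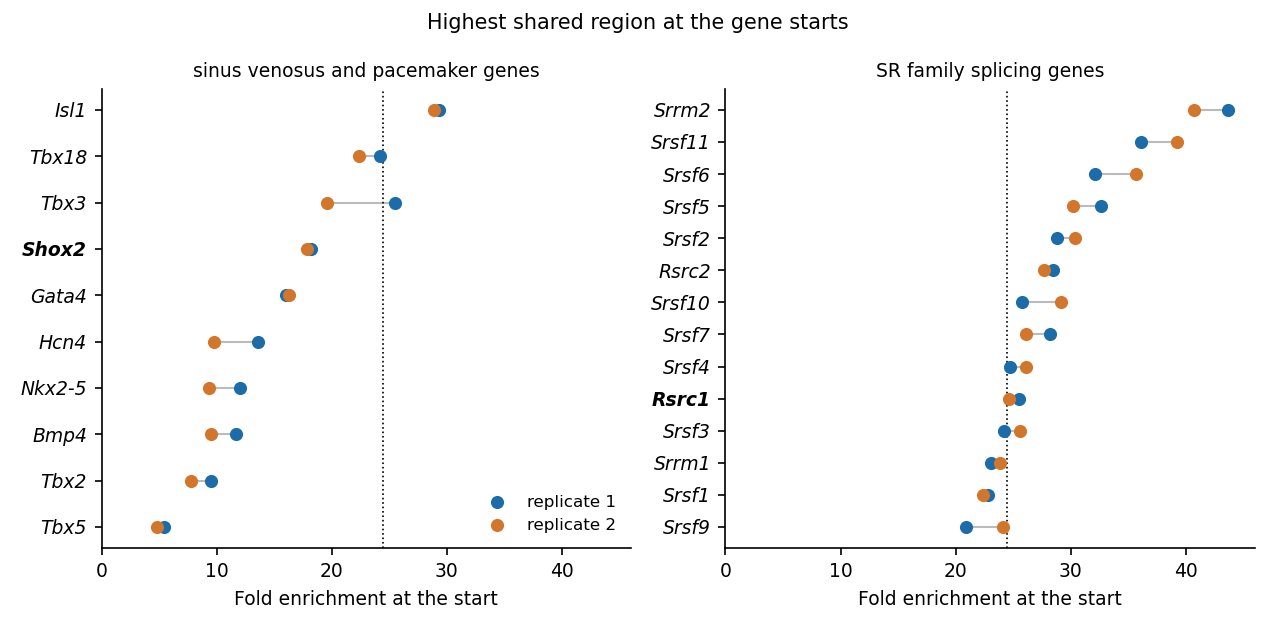
Fold enrichment (horizontal axis) of the highest shared region within 1 kb of a protein-coding start, in replicate 1 (blue) and replicate 2 (orange), for Shox2 beside 9 sinus venosus and pacemaker genes and for Rsrc1 beside 13 SR family genes. The dotted line is the median of open promoters, 24.5; Shox2 lies left of it and Rsrc1 on it.

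The remaining regions of Shox2 lay inside the gene. At its 3′ end, 8.1 kb from the start, the region chr3:66973339-66974102 was enriched 10.3-fold and 12.3-fold in replicates 1 and 2, from 37 and 48 reads, and was the third highest of the span in either replicate. Its summits, 2 bp apart, lay in coding sequence at the head of exon 5, the last exon, and the region held 291 bp of coding and 314 bp of untranslated exon. It had the highest C and G content of the 15, 62.8%, and a CpG ratio of 0.85, above 97.6% of all shared regions. The region chr3:66978447-66979452 was weaker, at 5.70 and 6.03 from 20 and 23 reads. It lay in the first intron of Shox2-201 and over the starts of the short isoforms Shox2-202 (66978447) and Shox2-205 (66978811), 51 and 125 bp from the summits in the case of Shox2-205. Exons 2, 3 and 4 of Shox2-201 were not covered by any shared region. A weak peak of replicate 2, at 3.27 from 12 reads and 4.3 kb from the start, had no counterpart in replicate 1.

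With 3 regions on 11.0 kb, 39.2% of the Shox2 segment was covered by shared regions. The density was 27.2 per 100 kb, and 3.86 per 100 kb over the autosomes and X. Short genes with an open start have a high density by their size alone, so the value describes the segment and is no measure of Shox2 among genes.

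The proximal gene desert held 9 shared regions, all of them between annotated genes and none over the 3 pseudogenes that are annotated there. Their fold enrichments ran from 3.80 to 8.96 in replicate 1, with a median of 4.62, and from 3.77 to 7.79 in replicate 2, with a median of 4.27. No desert region came near the values of the main Shox2 and Rsrc1 starts, and the highest was below the Shox2 exon 5 region in both replicates. The 95% read intervals of these last regions overlapped, 21.9 to 45.2 against 26.1 to 51.0 in replicate 1. In replicate 2 they were 20.2 to 42.8 against 35.4 to 63.6. The density was 3.14 per 100 kb, beside 3.86 over the autosomes and X and 8.29 in the adjoining VS-250. It rested on weak regions, since 2 of the 9 (0.699 per 100 kb) were left with q of at most 1e-10 in both replicates, a limit met by 45.8% of all shared regions. The regions covered 1.06% of the proximal desert and 4.02% of VS-250.

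The most VS-250-proximal pair lay 281.9 to 283.5 kb from the Shox2 start. The region chr3:66699634-66700067 was the highest of the proximal desert, at 8.96 in replicate 1 and 7.79 in replicate 2 from 32 and 30 reads, above 73.6% and 71.9% of the lists. Its summits lay 31 bp apart, and a minus-strand AGATAA match was centred 19 bp from the summit of replicate 1 (the second of the sequences above). At 1.2 kb from it, chr3:66698069-66698399 reached 4.62 and 4.53, from 16 and 17 reads. The next region, chr3:66738207-66738727, lay 243.3 kb from the start and reached 7.88 and 6.28 from 28 and 24 reads. Its 95% read intervals overlapped those of chr3:66699634-66700067 in both replicates, so counting error does not set their order. It held none of the 8 motifs in 200 bp, and close by, 242.4 kb from the start, replicate 2 had a peak of 3.27 that replicate 1 lacked.

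The next 5 desert regions towards Shox2 had lower values than those at 281.9 and 243.3 kb in both replicates. Some of their 95% read intervals overlapped those of the higher regions. The region chr3:66758083-66758478, 223.5 kb from the start, had 5.43 in replicate 1 and 4.27 in replicate 2 from 19 and 16 reads. It held a minus-strand match to the NKX2-5 letters and a plus-strand match to those of MEIS, centred 72 and 19 bp to the desert side of the replicate 1 summit. A cluster of 3 regions stood between 178.6 and 179.4 kb, at chr3:66802260-66802498 (3.80 and 4.27), chr3:66802725-66802960 (3.80 and 3.77) and chr3:66803039-66803258 (4.62 and 3.77). The last pair rested on 1 peak of replicate 2 that ran across both, so the cluster counted 3 peaks in replicate 1 and 2 in replicate 2. Each had 13 to 16 reads at its summit, with 95% intervals that all overlapped, so no order among them could be set. The summits of this cluster lay 135 to 291 bp apart between replicates, against at most 78 bp for the other 12 regions of the span. Summits at most 100 bp apart were thus seen in 12 of 15 regions, and in 74.3% of all shared regions.

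A lone region at 116.4 kb, chr3:66865285-66865545, had 4.07 in replicate 1 and 3.77 in replicate 2, from 14 reads in each. Beyond it no shared region was found for 105.2 kb, a gap longer than 95.7% of the 98830 gaps between neighbouring shared regions on the autosomes and X, whose median was 8.5 kb. The gap ended 10.8 kb from the Shox2 start, just past the 3′ end of the gene, at chr3:66970757-66971140. This region had 6.52 in replicate 1 and 4.78 in replicate 2 from 23 and 18 reads, its summits were 7 bp apart, and a minus-strand AGATAA match was centred 18 bp from the replicate 1 summit. Inside the gap each replicate had 1 peak without a counterpart, at 21.6 kb in replicate 1 (4.07 from 14 reads) and at 11.3 kb in replicate 2 (3.52 from 13 reads).

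The study placed several enhancers and predicted elements in the span, and none of 6 intervals held a peak in either replicate. They were DE1, PLE3, hs1262, the deletion interval called LHB and 2 predicted elements inside Rsrc1. DE1 is a desert element whose reporter, in the study, was active mainly in cranial nerve tissue at E11.5, without reproducible heart activity. The study describes it as the mouse ortholog of R4, a human sequence that an earlier study found active in the sinus venosus. PLE3 is a proximal limb enhancer given by its distance, placed with 2 kb on each side, a window shorter than the element the study cloned. The limb enhancer hs1262 was taken as the H3K27ac interval the study lists for it, and LHB overlaps part of that interval. Shared regions covered 1.3% of the span, so a count of 0 over so few short intervals, 2 of which overlap, does not set them apart from the sequence around them. The nearest shared region was 2.4 kb from DE1, at the cluster of 3, and 4.0 kb from the PLE3 window. It was 30.3 kb from hs1262 and 30.7 kb from the LHB deletion, which fall in the gap of 105.2 kb. The elements inside Rsrc1 lay 1.9 and 28.4 kb from the nearest shared region of the span. For the second of them, a shared region past the end of Rsrc1, starting at chr3:67369510, lay nearer. Other enhancers of the domain that the study names, such as hs741 and hs1413, were not analysed here. At this depth a site with fewer than 9 reads at its summit could not appear as a peak, so weaker accessibility was not detectable there. Of the 9 desert regions, 8 lay within the interval removed by the study's gene desert deletion and the 1 nearest to Shox2 lay outside it.

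Rsrc1 was sparse beyond its starts. Its gene body of 377.0 kb overlapped 4 shared regions, of which the Shox2 start and the main Rsrc1 start were 2, and the remaining 371.4 kb held 2 regions that covered 0.113% of it. The segment of Rsrc1 beyond the Shox2 promoter held 3 shared regions, which is 0.799 per 100 kb, while replicate 1 alone had 6 peaks there (1.60 per 100 kb) and replicate 2 alone 4 (1.06 per 100 kb). The density over the whole gene body was 1.06 per 100 kb. Among 2486 protein-coding genes of at least 100 kb the median was 4.38, with quartiles of 2.22 and 7.57, and 9.61% of these genes were below Rsrc1. Without regions within 1 kb of a start, the density of Rsrc1 was 0.53 against a median of 3.64, and 7.68% of genes were lower. A low density was shared by other long genes, and 27 of 351 genes with a length within 25% of that of Rsrc1 had a lower one. The closest in density among these 351 were Kcnh8 (376.5 kb) and Mbd5 (375.9 kb), with 4 regions and 1.06 per 100 kb each, and Ppfia2 (465.6 kb), with 5 regions and 1.07.

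**Figure D4:**
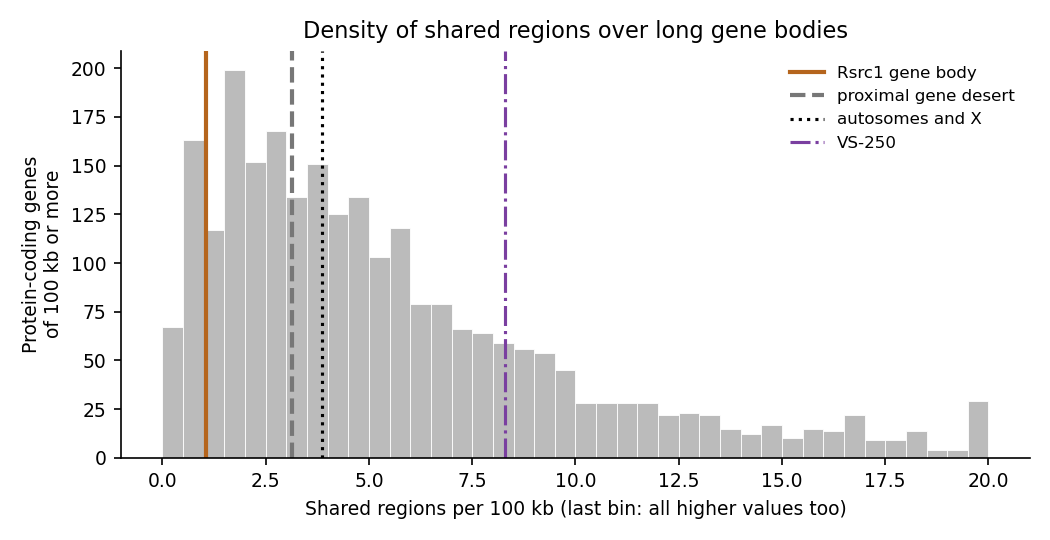
Number of protein-coding genes of at least 100 kb (vertical axis, 2486 genes) by shared regions per 100 kb of gene body (horizontal axis, linear, with all higher values in the last bin). Vertical lines mark Rsrc1 (1.06), the proximal gene desert (3.14), the autosomes and X (3.86) and VS-250 (8.29).

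The stronger of the 2 intronic regions, chr3:67134718-67135029, lay 153.1 kb from the Shox2 start between exons 4 and 5 of Rsrc1-203. It had 10.1 in replicate 1 and 7.29 in replicate 2, from 36 and 28 reads, above 77.5% and 69.2% of the lists, and was the fourth highest of the span in replicate 1 and the fifth in replicate 2. A minus-strand AGATAA match was centred 2 bp from the replicate 1 summit and a minus-strand TNAAGTG match 24 bp from it, as shown in the first sequence above. Within the 200 bp around the replicate 1 summit, it was the only region of the span with matches to the letters of both factors. The share of all shared regions with both was not counted. The replicate 2 summit of this region lay 66 bp from that of replicate 1. The gaps on its sides were 148.3 and 176.5 kb, longer than 97.5% and 98.2% of gaps on the autosomes and X.

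The other, chr3:67311562-67311668, was the weakest region of the span. It lay 329.8 kb from the Shox2 start between exons 7 and 8 and had 3.26 in replicate 1 and 3.52 in replicate 2 from 11 and 13 reads, the lowest values of the shared regions in both replicates. The replicates had only 107 bp in common there, although the summits were 18 bp apart. Exons 2 to 10 of Rsrc1-203 were not covered by a shared region. Of the peaks found in 1 replicate, the highest of replicate 1 had 4.89 from 17 reads and lay 303.2 kb from the Shox2 start in an Rsrc1 intron. The highest of replicate 2 had 3.77 from 14 reads and lay 228.5 kb away, also in an intron. For that peak 69.8% of 32-base words were unique in the reference, where each of the other 36 peaks of the span had at least 95.7%.

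Fold enrichments of the replicates were close in the 15 shared regions, which leave out the peaks found in 1 replicate. The log2 ratio of replicate 1 to replicate 2 fold enrichment ran from -0.26 at the Shox2 exon 5 region to 0.46 at the strong Rsrc1 intronic region. None of the 15 regions lay outside the central 95% range of all shared regions in the same decile of mean fold enrichment, where 4.86% of all shared regions did. With so few regions this stood near the share of the genome. The range was wide at the Shox2 start, from -2.76 to 2.4. The ratios at the Shox2 and Rsrc1 starts were 0.03 and 0.05, the equivalent of a 1.02-fold and a 1.04-fold difference. Replicate 1 was higher in 11 of 15 regions, 73.3% against 66.2% of all shared regions. The rank correlation between replicates was 0.955 over the 15 regions, which share libraries.

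**Figure D5:**
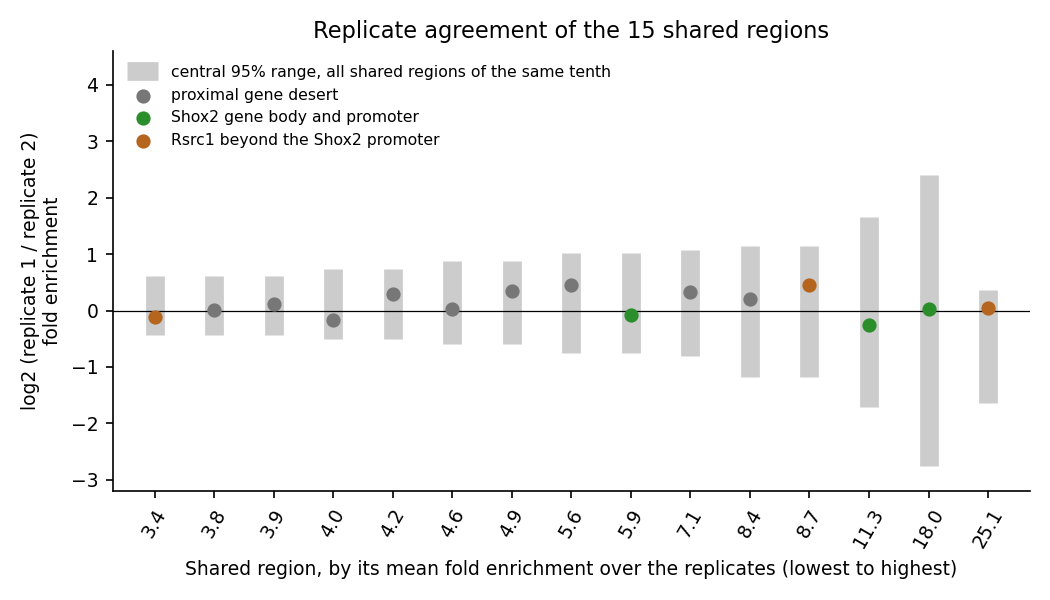
Log2 ratio of the fold enrichments of replicate 1 and replicate 2 (vertical axis) for the 15 shared regions, ordered by mean fold enrichment (horizontal axis), with grey bars for the central 95% range over all shared regions of the genome in the same decile of mean fold enrichment. All points lie within their bars, the lowest at -0.26 and the highest at 0.46.

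The CpG content of the regions followed their position. The 3 regions of Shox2 and the main Rsrc1 start had observed to expected CpG ratios from 0.60 to 0.85, while the other 11 regions had ratios from 0.00 to 0.42. The C and G content of these 11 ran from 36.6% at the 223.5-kb desert region, to 56.8% at the region just past the Shox2 3′ end. All 32-base words were unique in the reference for 12 of the 15 regions, and the exceptions were the region of the Shox2 first intron (98.6% unique), the Rsrc1 start (96.1%) and the Shox2 start (95.7%). Soft-masked repeat bases were present in 12 of 15 regions, 80.0% against 73.9% of all shared regions.

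Few regions held the letters of the 8 motifs in 200 bp around the summit. At least 1 motif was found in 4 of 15 regions, 26.7% against 57.7% of 98850 shared regions on the autosomes and X. AGATAA was present in 3 of 15 regions and in 17.1% of all shared regions, and TGACAG in 1 of 15 (6.67% against 21.3%). TNAAGTG was present in 2 regions and absent from 13, 86.7% against 88.5% of all shared regions. No match was found to AGGTGTNA of the T-box factors (2.34% of all shared regions), GGAATG of the TEAD factors (14.7%), CTAATG of ISL1 (6.07%) or the longer motifs of MEF2 (4.29%) and CTCF (4.58%). The shares of GATA and NKX2-5 letters were near those of the genome. Several counts turned on the window. Within 400 bp, GGAATG was present in 6 of 15 regions (40.0%), where 25.2% of all shared regions held it, and AGATAA in 5 of 15 (33.3% against 26.2%). CTAATG was present in 3 of 15 within 400 bp (12.2% of all shared regions) and TGACAG in 3 of 15 (34.2%).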

How the data were processed

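ATAC-seq was performed on E11.5 WT FVB hearts (2 replicates of 2 pooled hearts each, 1 group). According to the study's methods and the submitters' processing notes, the authors trimmed single-end reads (Trim Galore 0.6.6, Cutadapt), aligned them to GRCm38/mm10 with Bowtie2 2.4.2, dropped duplicate and poorly mapped reads (SAMtools 1.12), and ran MACS2 on each replicate against a genome-wide background. The deposited lists hold a display score (not used), a fold ratio over background at the summit, −log10 p-values and q-values, and the summit offset. The weakest peaks had p of 0.000476 (replicate 1) and 0.00104 (replicate 2), and the shortest spanned 200 bp. These values do not match the p limit and read extension stated in the study's methods, so the extension behind a summit read number is not known. Total reads are not in the files; the number of reads at a summit was recovered from the steps between fold values, and intervals (exact Poisson, 95%) cover counting error only.

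Shared regions were intersections of at least 1 bp (bedtools 2.31.1), each with the value of the highest peak per replicate. Regions were assigned by midpoint, with GENCODE M21 for genes and GRCm38.p6 for sequence; no peak passed a chromosome end. Analyses used Python 3.11.15, pandas 2.3.3, NumPy 2.4.6, SciPy 1.17.1 and Numba 0.67.0, and the overlap, motif and unique-word steps were tested on simulated data. No test between groups was possible. The text names every shared region of the span, the highest peak found in 1 replicate for each replicate, and the 3 genes closest to Rsrc1 in density among those with a length within 25% of its own; gene lists are given by counts, and 1 gene of the pacemaker list is not reported here. Members, motifs and lists were chosen with earlier results of these data known. Alternatives changed the p or q threshold, the overlap, the replicates, the element and promoter widths, the replicate range, the motif window and the gene length. Sequences are those of the reference strain, not of FVB.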

Additional observations from a re-analysis of the deposited data

How the results depend on the processing

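No paired analysis was possible because the series holds a single group, so no comparison between groups exists to be paired. Of 94 recalculated values, 79 kept within their limits and 15 moved. With q of at most 1e-10 in both replicates, 6 shared regions remained in the span, 2 of them in the proximal desert (0.699 per 100 kb), and the median fold enrichment rose to 10.2 in replicate 1 and 10.1 in replicate 2; the 6 were the Shox2 and Rsrc1 starts, the Shox2 exon 5 region, the strong Rsrc1 intronic region and the desert regions at 281.9 and 243.3 kb. With a reciprocal overlap of at least 50%, or with summits at most 100 bp apart, the medians were 7.20 and 6.16, and 12 regions were left in each case. The cluster of 3 desert regions lost 2 members under the reciprocal overlap and all 3 under the summit limit. The weakest Rsrc1 region was lost under the reciprocal overlap, at p of at most 0.00001 and at q of at most 0.001. Taking all peaks of 1 replicate in place of shared regions gave 18 to 19 regions in the span, 10 in the desert, 3 to 4 in Shox2 (27.2 to 36.2 per 100 kb) and 4 to 6 in Rsrc1 beyond the Shox2 promoter (1.06 to 1.60 per 100 kb, against 3 shared regions and 0.799), the highest without replicate 2, with a median fold enrichment of 4.89 in replicate 1 alone and 4.40 in replicate 2 alone. The share of regions with the TEAD letters was 40.0% in 400 bp and 40.0% over the whole region; the counts of AGATAA rose from 3 to 5, of TGACAG from 1 to 3 and of CTAATG from 0 to 3 of 15 in 400 bp. None of the 6 study elements held a region under any alternative run, including PLE3 redrawn as 5 kb on each side of its stated distance, which was chosen after seeing the data. In 6 of the regions the summits had 11 to 17 reads in both replicates.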
